A study of Homo sapiens with 43 samples.

Results

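The genes described here are 51 genes of mitosis and chromosome segregation, chosen by name as mitotic cyclins, kinases, checkpoint proteins, kinetochore proteins, kinesins and condensins, out of 58302 annotated gene entries. The rule uses gene names and no measured value, but the list was chosen with earlier results of these data known. The cells were HEL, an erythroleukemia cell line, stably transduced with U2AF1 carrying the S34F change, with U2AF1 carrying Q157R, or with wild-type U2AF1 (WT). U2AF1 is the smaller of the pair of U2AF proteins that bind the end of the intron, where the next exon begins. Doxycycline, which switches on the introduced U2AF1, was given at 1 µg/ml for 48 hours to the induced cells and withheld from the uninduced cells. RNA-seq after rRNA depletion had 2 libraries from induced S34F cells, 1 from uninduced S34F, 2 from induced Q157R, 1 from uninduced Q157R, 2 from induced WT and 2 from uninduced WT cells. All libraries come from this 1 cell line, and whether each U2AF1-carrying line is a clone or a pool is not given in the sources used here. The labels call the replicates biological without saying whether each came from its own culture, and the p-values below therefore measure a spread that may be technical.

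Entry into mitosis is driven by CDK1 bound to cyclins A and B, with the Polo-like and Aurora kinases setting centrosome maturation and spindle assembly. Condensins and topoisomerase II compact and untangle the chromosomes, kinetochores attach them to microtubules, and the spindle checkpoint holds back the anaphase-promoting complex until every chromosome is attached. Most of these genes are transcribed in G2 and mitosis through promoters that carry a cell cycle genes homology region (CHR) and CCAAT boxes, read by the MuvB complexes with B-MYB and FOXM1 and by NF-Y, and are repressed through the same CHR element in resting cells.

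Those promoter elements could be looked up for 44 of the 51 genes in RefSeq promoter windows of GRCh38.p14, which run from 250 bases before to 50 bases after the start. BIRC5, UBE2C, TPX2, RACGAP1, AURKA, BUB3 and TTK had no window. The letters searched were TTTGAA and TTCGAA for CHR and CCAAT for the NF-Y box, on both strands. Other spellings of the CHR were not searched, so a gene without a match may still hold one. CHR letters were found for 34 of 44 genes (77.3%), and in 68.5% of the 54 windows of these genes against 16.4% of all 35116 windows. CCAAT was found for 32 of 44 genes (72.7%), in 66.7% of their windows against 34.6% of all windows. Both motifs occurred together in 50.0% of the windows of these genes and in 6.38% of all windows. The E2F letters TTTGGCGC or TTTCGCGC were found for 2 of 44 genes, in 5.56% of their windows against 1.15% of all. CHR matches clustered near the start, with 36 of 49 within 50 bases on either side, whereas the median CCAAT match began 86 bases upstream. A CHR and a CCAAT match overlapped in 1 window, that of MKI67. The 6 sequences that follow show the 150 bases before the start, with the searched CHR and CCAAT letters in capitals. In 4 genes both were found, in 1 (NCAPG) only the searched CHR letters, and in 1 (CCNA2) only CCAAT. CDC20 is at chr1:43358831-43358980 (plus strand), INCENP at chr11:62123861-62124010 (plus strand) and KIF23 at chr15:69414199-69414348 (plus strand). PRC1 is at chr15:90994536-90994685 (minus strand), NCAPG at chr4:17810829-17810978 (plus strand) and CCNA2 at chr4:121823884-121824033 (minus strand).
CDC20: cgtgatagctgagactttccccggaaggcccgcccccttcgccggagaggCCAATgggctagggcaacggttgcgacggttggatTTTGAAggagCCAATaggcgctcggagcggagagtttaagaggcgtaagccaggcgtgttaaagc
INCENP: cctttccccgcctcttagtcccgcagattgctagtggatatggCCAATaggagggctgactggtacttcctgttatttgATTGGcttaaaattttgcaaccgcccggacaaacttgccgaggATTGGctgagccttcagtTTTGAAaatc
KIF23: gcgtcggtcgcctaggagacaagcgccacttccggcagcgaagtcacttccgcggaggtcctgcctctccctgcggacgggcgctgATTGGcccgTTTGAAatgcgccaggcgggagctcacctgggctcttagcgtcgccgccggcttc
PRC1: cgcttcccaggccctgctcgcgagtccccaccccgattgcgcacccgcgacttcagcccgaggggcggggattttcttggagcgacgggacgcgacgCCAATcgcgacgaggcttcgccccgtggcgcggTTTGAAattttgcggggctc
NCAPG: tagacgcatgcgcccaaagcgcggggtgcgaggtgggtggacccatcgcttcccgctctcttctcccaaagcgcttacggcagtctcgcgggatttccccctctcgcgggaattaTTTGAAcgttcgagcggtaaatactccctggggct
CCNA2: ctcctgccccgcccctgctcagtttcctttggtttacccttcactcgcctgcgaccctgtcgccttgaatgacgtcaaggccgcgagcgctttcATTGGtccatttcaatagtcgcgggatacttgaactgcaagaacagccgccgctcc
In CDC20 the CHR letters start 65 bases and a CCAAT box 55 bases before the start, and in PRC1 they start 20 and 53 bases before it. NCAPG has its CHR letters 35 bases before the start. A match is a description of letters in a window and was not tested for binding.

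RNA-seq libraries held 22392303 to 40370092 gene counts, and each of the 51 genes had between 202 and 29995 counts in every library, so all 51 passed the filter on low counts together with 21249 other genes. Reads that fell outside annotated features made up 33.7% and 33.5% of reads in induced S34F cells, against 20.3% in uninduced S34F cells. The induced Q157R libraries had 23.2% and 27.0%, against 20.6% in uninduced Q157R, and WT libraries had 22.7% and 22.7% when induced, against 19.5% and 19.0% uninduced. This share moves with the line and with induction, and its part in the results below was not tested. All 8 erythroid and megakaryocytic markers were expressed. Their summed level was 2504 to 2690 CPM (counts scaled to library size with TMM) in induced S34F cells against 3499 CPM in uninduced S34F cells, 2874 to 2894 CPM in induced Q157R against 3448 CPM in uninduced Q157R cells, and 3328 to 3883 CPM in induced WT against 3279 to 3371 CPM in uninduced WT cells. The 5 lymphoid markers summed to 0.656 to 2.32 CPM and MS4A1 was at 0 in all libraries, and the 6 stromal and epithelial markers summed to 0.336 to 1.50 CPM. U2AF1 stood at 18.0 and 19.4 CPM in induced against 21.2 CPM in uninduced S34F cells, at 21.5 and 15.2 CPM against 22.1 CPM in Q157R cells, and at 19.1 and 11.0 CPM against 13.4 and 12.6 CPM in WT cells, so its gene count does not show the induced transgene.

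The summed level of the 51 mitotic genes was lower in induced than in uninduced cells of all 3 lines. Summed over the 51 genes, the level was 5608 and 4961 CPM in induced S34F cells, against 9777 CPM in uninduced S34F cells. In Q157R cells the sum was 6925 and 6411 CPM when induced, against 9731 CPM uninduced. WT cells had 6362 and 5597 CPM when induced, against 10093 and 9059 CPM uninduced. The 6 induced libraries lay between 4961 and 6925 CPM and the 4 uninduced libraries between 9059 and 10093 CPM, with no overlap. Of the 51 genes, 47 and 49 were below their lowest uninduced level in the 2 induced S34F libraries, as were 34.4% and 34.3% of all genes tested. In the induced Q157R libraries 41 and 49 were, against 26.8% and 31.4% of all genes, and in the induced WT libraries 47 and 50 were, against 22.1% and 30.2% of all genes. In bulk RNA, fewer cells in G2 and mitosis and less of these RNAs per cell cannot be told apart. The series holds no cells without introduced U2AF1 that were given doxycycline. Doxycycline itself and the induced U2AF1 therefore cannot be told apart either.

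**Figure D1:**
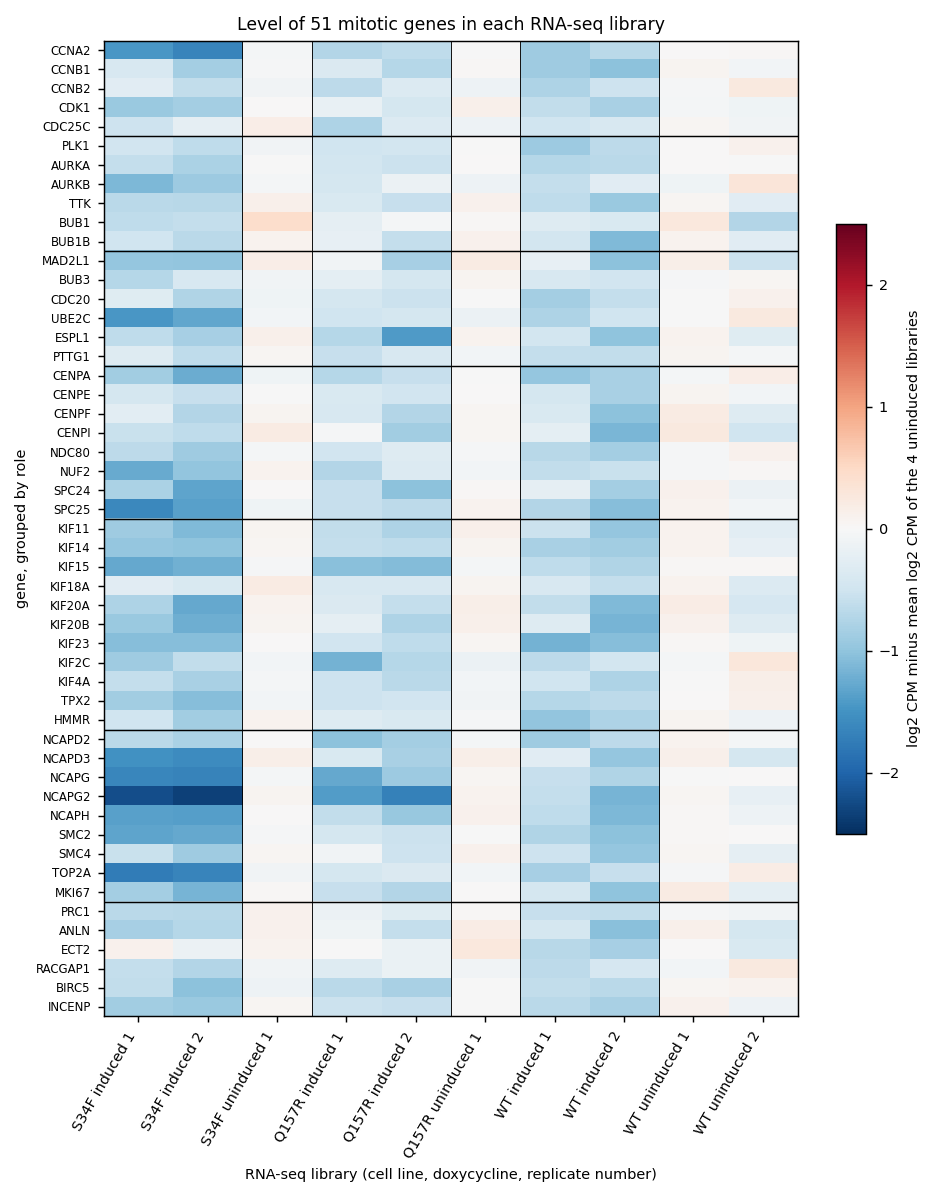
Level of each of the 51 genes (vertical, grouped by role between the black lines) in each of the 10 RNA-seq libraries (horizontal), as log2 CPM minus the gene's mean log2 CPM over the 4 uninduced libraries. The 6 induced libraries are mostly blue (lower), and the deepest blue is NCAPG2 in induced S34F cells.

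All 51 genes had a log2 fold change below 0 on induction in each of the 3 lines, which held for 26.1% of all genes tested and 33.8% of protein-coding genes. Over the alternative settings, 50 or 51 of the genes were below 0 in each line. The 3 inductions share no library. The median log2 fold change over the 51 genes was -0.88 in S34F cells, where all genes tested had a median of 0.06. It was -0.52 in Q157R cells, against 0.05 over all genes, and -0.67 in WT cells, against 0.01. Within replicate 1 the medians were -0.80 in S34F, -0.46 in Q157R and -0.65 in WT, and within replicate 2 the WT median was -0.71.

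Single genes passed the adjusted threshold mainly in S34F cells. There, 14 of the 51 genes fell at an edgeR adjusted p under 0.05 (CCNA2, UBE2C, NUF2, SPC25, KIF14, KIF15, KIF23, NCAPD3, NCAPG, NCAPG2, NCAPH, SMC2, TOP2A and INCENP), where 1.26% of all genes were called lower. With the replicate number as a block 36 fell, where 11.0% of all genes and 16.4% of protein-coding genes were called lower. Without the block 42 of the 51 had an unadjusted p under 0.05 in S34F cells, as did 5372 of all 21300 genes tested. Of all genes tested, 1888 did in Q157R cells and 1363 in WT cells. No gene of the 51 was called in induced against uninduced Q157R cells (0% of all genes were called lower, and 22 of the 51 had an unadjusted p under 0.05), and 4 fell with the block, KIF15, KIF2C, NCAPG and NCAPG2, where 0.117% of all genes did. None was called in WT cells (0% of all genes called lower, 40 of the 51 with an unadjusted p under 0.05), and 15 fell with the block (CCNA2, CCNB1, PLK1, CENPA, KIF14, KIF20A, KIF23, TPX2, HMMR, NCAPD2, NCAPG2, NCAPH, SMC2, TOP2A and INCENP), where 0.164% of all genes did. DESeq2 called 23 in S34F, 3 in Q157R and 2 in WT cells, and the share of all genes it called is not given here. Without either of the 2 induced S34F libraries none of the 14 was called. Induced and uninduced libraries did not overlap, with induced lower, for 50 of the 51 genes in S34F cells (40.4% of all genes), 51 in Q157R cells (33.6% of all genes) and 47 in WT cells (16.3% of all genes). With the block, 13 of the 51 fell in both S34F and WT cells (36.1% of the 36 and 86.7% of the 15), and CCNB1 and PLK1 fell in WT and were not called in S34F cells. NCAPG2 was called in all 3 lines.

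**Figure D2:**
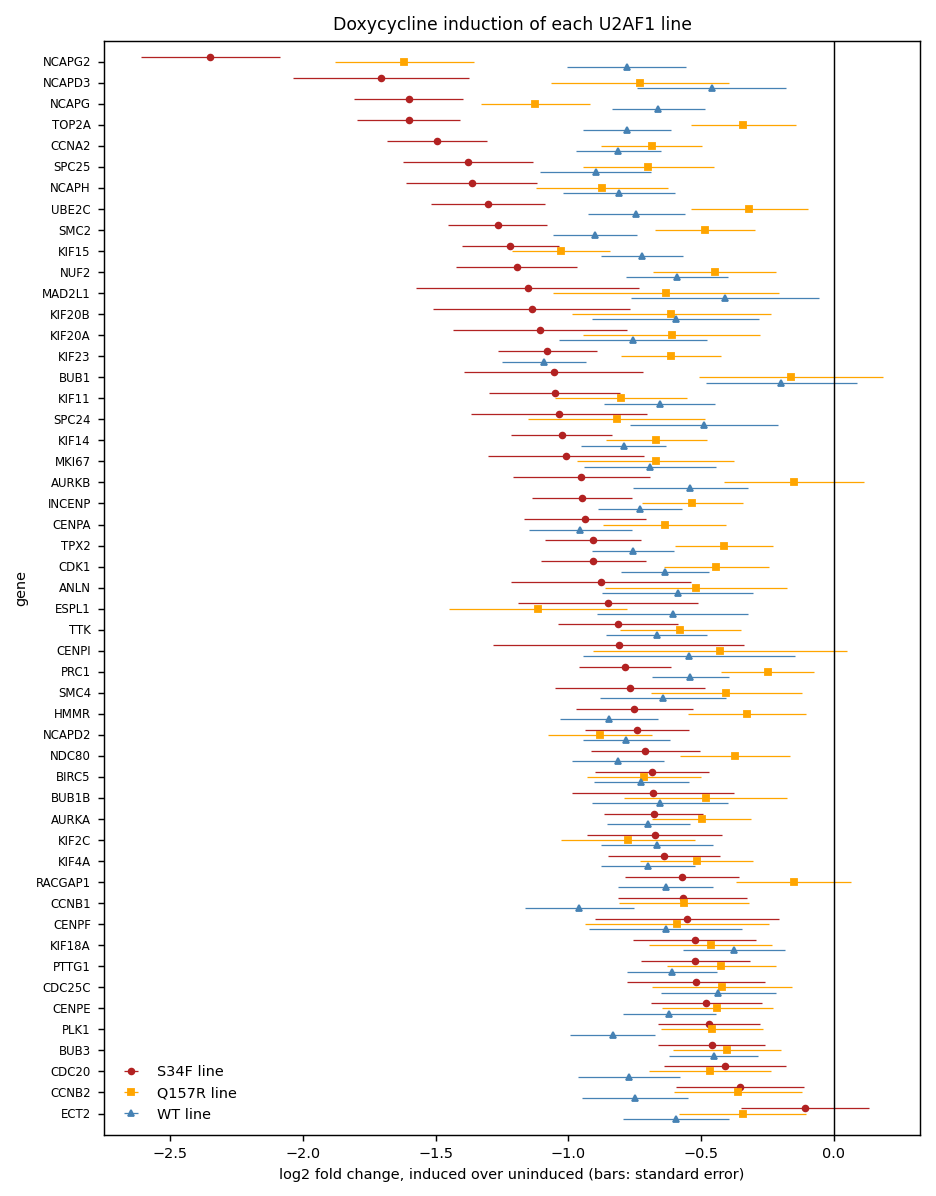
Log2 fold change of induced over uninduced cells (horizontal, bars are 1 standard error) for the 51 genes (vertical, ordered by the S34F value) in the S34F, Q157R and WT lines. All points are left of 0, from -2.35 for NCAPG2 to -0.11 for ECT2 in the S34F line, while the WT points lie between -1.09 and -0.20.

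Across the 51 genes, Spearman's rho between the fold changes was 0.17 for S34F and WT, 0.23 for Q157R and WT and 0.42 for S34F and Q157R, where all genes tested gave 0.49, 0.52 and 0.51. Genes are not independent replicates, and these values are descriptions. The WT changes span a narrow range, from -1.09 for KIF23 to -0.20 for BUB1, and the S34F changes run from -2.35 for NCAPG2 to -0.11 for ECT2.

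Condensins and other chromosome structure genes held the 4 deepest S34F changes. All 9 genes of the class fell on S34F induction with the block and 6 without it, and the class median was -1.36 in S34F, -0.73 in Q157R and -0.78 in WT cells. NCAPG2, a subunit of condensin II, stood at 33.3 and 30.99 CPM in induced S34F cells, against 164 CPM in uninduced S34F cells. It stood at 59.1 and 48.2 CPM in induced and 165 CPM in uninduced Q157R cells, and at 103 and 69.9 CPM in induced and 162 and 134 CPM in uninduced WT cells. All 6 induced libraries lie below all 4 uninduced libraries, and the induced S34F libraries are the lowest. The S34F change was -2.35 ± 0.26 (edgeR adjusted p = 0.0340), a 5.10-fold lower level. With the block the Q157R change was -1.47 ± 0.18 (edgeR adjusted p = 0.0139) and the WT change -0.80 ± 0.14 (edgeR adjusted p = 0.0442).

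NCAPD3, the HEAT-repeat partner of NCAPG2 in condensin II, had 55.1 and 52.9 CPM in induced S34F cells, against 176 CPM in uninduced S34F cells. The other lines had 121 and 89.7 CPM in induced and 175 CPM in uninduced Q157R cells and 129.5 and 81.4 CPM in induced and 173 and 117 CPM in uninduced WT cells. The induced S34F values are below every other library, and induced and uninduced WT libraries overlap. Its S34F change was -1.705 ± 0.33 (edgeR adjusted p = 0.0478). NCAPG, the matching subunit of condensin I, had 58.8 and 57.2 CPM in induced S34F cells, against 176 CPM in uninduced S34F cells. Q157R and WT libraries had 74.7 and 96.9 CPM in induced and 187 CPM in uninduced Q157R cells and 122 and 108 CPM in induced and 181 and 182 CPM in uninduced WT cells, with no overlap in any line. It fell by 1.60 ± 0.21 (edgeR adjusted p = 0.0340) on the log2 scale in S34F cells. NCAPH, the kleisin that closes the condensin I ring, had 54.1 and 53.5 CPM in induced S34F cells, against 138 CPM in uninduced S34F cells. Its remaining libraries had 90.7 and 71.6 CPM in induced and 149 CPM in uninduced Q157R cells and 89.01 and 63.3 CPM in induced and 141 and 126 CPM in uninduced WT cells, and the S34F change was -1.36 ± 0.25 (edgeR adjusted p = 0.0438). Induced S34F libraries were the lowest of all for both NCAPG and NCAPH.

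SMC2, an ATPase shared by both condensins, had 71.1 and 73.5 CPM in induced S34F cells, against 174 CPM in uninduced S34F cells. It had 132 and 122 CPM in induced and 178 CPM in uninduced Q157R cells, and 106 and 87.96 CPM in induced and 182 and 179 CPM in uninduced WT cells. Groups did not overlap in any line, and the S34F change was -1.27 ± 0.19 (edgeR adjusted p = 0.0340). TOP2A, the topoisomerase that decatenates sister chromatids, had 205 and 219 CPM in induced S34F cells, against 644 CPM in uninduced S34F cells. Elsewhere it had 509 and 534 CPM in induced and 660.4 CPM in uninduced Q157R cells and 387 and 462 CPM in induced and 677 and 779 CPM in uninduced WT cells. The induced S34F level is less than that of any other library, and TOP2A changed by -1.60 ± 0.19 (edgeR adjusted p = 0.0340) there. MKI67, which encodes the Ki-67 protein that coats mitotic chromosomes and is the most abundant of the class, had 472 and 380.1 CPM in induced S34F cells, against 858 CPM in uninduced S34F cells. It had 565 and 509 CPM in induced and 855 CPM in uninduced Q157R cells and 628 and 419.5 CPM in induced and 981 and 713 CPM in uninduced WT cells. Its S34F change, -1.01 ± 0.29 (edgeR adjusted p = 0.0964), missed the threshold and passed it with the block at -0.83 ± 0.18 (edgeR adjusted p = 0.00927). NCAPD2 and SMC4, the remaining condensin subunits, had S34F changes of -0.74 ± 0.20 (edgeR adjusted p = 0.0811) and -0.77 ± 0.28 (edgeR adjusted p = 0.146). NCAPG, NCAPD3, NCAPD2 and SMC4 overlap genes on the other strand (LCORL for NCAPG, VPS26B and JAM3 for NCAPD3, MRPL51 for NCAPD2 and IFT80 for SMC4), and the strand setting of the counting is not stated, so their counts may hold reads of those genes.

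**Figure D3:**
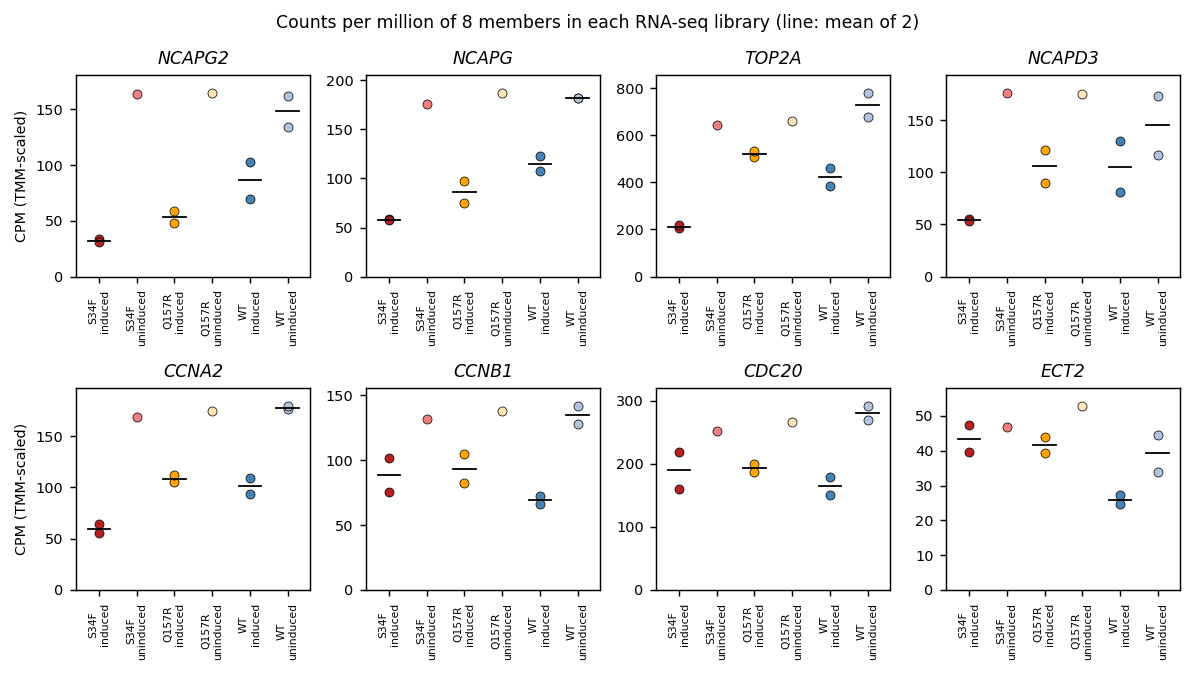
CPM (vertical, from 0) of 8 of the genes in each RNA-seq library, with the groups along the horizontal axis, 1 point per library and a line at the mean of groups with 2 libraries. NCAPG2, NCAPG, TOP2A, NCAPD3 and CCNA2 are lowest in the 2 induced S34F libraries, and ECT2 and CCNB1 are lowest in the 2 induced WT libraries.

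Of the mitotic cyclins, CDK1 and its activator, CCNA2 was called on S34F induction. CCNA2, cyclin A2, had 64.01 and 55.6 CPM in induced S34F cells, against 169 CPM in uninduced S34F cells. It had 105 and 112 CPM in induced and 174 CPM in uninduced Q157R cells, and 93.8 and 109 CPM in induced and 177 and 179 CPM in uninduced WT cells. All induced libraries were lower than all uninduced ones, and the induced S34F libraries were lowest. The S34F change was -1.495 ± 0.19 (edgeR adjusted p = 0.0340), and the block gave -0.81 ± 0.14 (edgeR adjusted p = 0.0383) for WT. CCNA2 overlaps EXOSC9 on the other strand. CCNB1, cyclin B1, had 102 and 75.2 CPM in induced S34F cells, against 131 CPM in uninduced S34F cells. It had 105 and 82.4 CPM in induced and 138 CPM in uninduced Q157R cells and 72.3 and 66.5 CPM in induced and 142 and 128 CPM in uninduced WT cells. The induced WT libraries were lowest for CCNB1. The block gave -0.96 ± 0.14 (edgeR adjusted p = 0.0215) for the WT line, where CCNB1 fell, and -0.45 ± 0.17 (edgeR adjusted p = 0.0867) for the S34F line, where it did not pass. CCNB2 had S34F and WT changes of -0.35 ± 0.24 and -0.75 ± 0.20, CDK1 of -0.91 ± 0.20 and -0.63 ± 0.17, and CDC25C, the phosphatase that activates CDK1, of -0.52 ± 0.26 and -0.44 ± 0.22, none of which passed without the block. With it CDK1 fell in S34F cells, -0.85 ± 0.18 (edgeR adjusted p = 0.00818).

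Of the 6 mitotic kinases none was called on S34F induction, and 3 were with the block (AURKA, AURKB and TTK). BUB1, a checkpoint kinase at the kinetochore and the most abundant of the class, had 209 and 217 CPM in induced S34F cells, against 443 CPM in uninduced S34F cells. It had 279 and 316 CPM in induced and 332 CPM in uninduced Q157R cells and 261 and 251 CPM in induced and 392 and 196 CPM in uninduced WT cells. The 2 uninduced WT libraries lie on either side of the induced WT ones, so that the groups overlap. Its S34F change was -1.06 ± 0.34 (edgeR adjusted p = 0.116). PLK1, the Polo-like kinase, had 118 and 106 CPM in induced S34F cells, against 155 CPM in uninduced S34F cells. It had 116 and 119.6 CPM in induced and 162 CPM in uninduced Q157R cells and 87.5 and 104 CPM in induced and 165 and 177 CPM in uninduced WT cells. Groups did not overlap in any line and induced WT replicate 1 was lowest. PLK1 fell with the block in WT cells, -0.83 ± 0.14 (edgeR adjusted p = 0.0342), and gave -0.50 ± 0.17 (edgeR adjusted p = 0.0640) in S34F cells. The Aurora kinases AURKA and AURKB had S34F changes of -0.68 ± 0.19 and -0.95 ± 0.26. TTK and BUB1B, kinase and pseudokinase of the checkpoint, had -0.81 ± 0.23 and -0.68 ± 0.31.

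Spindle checkpoint and anaphase control genes had 1 of 6 called on S34F induction and 3 with the block (UBE2C, MAD2L1 and ESPL1). UBE2C, the ubiquitin-conjugating enzyme of the anaphase-promoting complex, had 21.6 and 24.1 CPM in induced S34F cells, against 56.3 CPM in uninduced S34F cells. It had 41.8 and 43.99 CPM in induced and 53.5 CPM in uninduced Q157R cells and 34.9 and 42.2 CPM in induced and 58.8 and 70.4 CPM in uninduced WT cells. The induced S34F libraries were lowest and the groups did not overlap. The change was -1.30 ± 0.22 (edgeR adjusted p = 0.0381) in S34F and -0.32 ± 0.22 (edgeR adjusted p = 0.634) in Q157R cells. CDC20, the activator of that complex and the most abundant of the class, had 219 and 159.9 CPM in induced S34F cells, against 251 CPM in uninduced S34F cells. It had 199 and 187 CPM in induced and 267 CPM in uninduced Q157R cells and 150.0 and 178 CPM in induced and 269 and 291 CPM in uninduced WT cells. Induced WT replicate 1 was lowest, and the S34F change, -0.41 ± 0.23 (edgeR adjusted p = 0.303), did not pass with the block either. The checkpoint protein genes MAD2L1 and BUB3 had S34F changes of -1.15 ± 0.42 and -0.46 ± 0.20. ESPL1, separase, and PTTG1, its inhibitor securin, had -0.85 ± 0.34 and -0.52 ± 0.20.

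Of 8 centromere and kinetochore genes, 2 were called on S34F induction and 5 with the block. NUF2, a subunit of the NDC80 complex that binds microtubules, had 22.4 and 26.8 CPM in induced S34F cells, against 56.4 CPM in uninduced S34F cells. It had 32.02 and 42.01 CPM in induced and 50.6 CPM in uninduced Q157R cells and 34.6 and 36.2 CPM in induced and 52.5 and 54.1 CPM in uninduced WT cells. SPC25, another subunit of that complex, had 8.24 and 9.92 CPM in induced S34F cells, against 23.6 CPM in uninduced S34F cells, with 17.1 and 16.1 CPM in induced and 26.95 CPM in uninduced Q157R cells and 15.3 and 12.04 CPM in induced and 26.9 and 23.997 CPM in uninduced WT cells. For both genes the induced S34F libraries were the lowest of all 10. The S34F changes were -1.20 ± 0.23 (edgeR adjusted p = 0.0471) for NUF2 and -1.38 ± 0.25 (edgeR adjusted p = 0.0432) for SPC25. The 2 remaining subunits had S34F changes of -0.71 ± 0.20 for NDC80 and -1.04 ± 0.33 for SPC24, which pass with the block. CENPF, a large kinetochore and nuclear matrix protein and the most abundant of the class, had 551 and 397 CPM in induced S34F cells, against 695 CPM in uninduced S34F cells. It had 502 and 397 CPM in induced and 677 CPM in uninduced Q157R cells and 506 and 323 CPM in induced and 758 and 528 CPM in uninduced WT cells. Replicate 2 was the lower one in each pair of CENPF libraries, and its S34F change was -0.55 ± 0.35 (edgeR adjusted p = 0.350). CENPA, the centromeric histone H3 variant, changed by -0.94 ± 0.23 in S34F and -0.96 ± 0.20 in WT cells, both called with the block. The kinesin CENPE and the inner kinetochore protein CENPI had S34F changes of -0.48 ± 0.21 and -0.81 ± 0.47. SPC25 overlaps NOSTRIN and NUF2 overlaps RGS5 on the other strand, and CENPA overlaps SLC35F6 on its own strand.

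Kinesins and spindle proteins had 3 of 11 genes called on S34F induction and 10 with the block, KIF18A being the exception. KIF15, a kinesin that helps hold the spindle poles apart, had 26.2 and 27.4 CPM in induced S34F cells, against 62.4 CPM in uninduced S34F cells. It had 30.7 and 29.8 CPM in induced and 61.7 CPM in uninduced Q157R cells and 40.97 and 37.6 CPM in induced and 65.1 and 64.6 CPM in uninduced WT cells. KIF23, the motor of centralspindlin, had 53.2 and 52.97 CPM in induced S34F cells, against 112 CPM in uninduced S34F cells, with 79.9 and 71.2 CPM in induced and 116 CPM in uninduced Q157R cells and 48.6 and 53.02 CPM in induced and 114 and 103 CPM in uninduced WT cells. KIF15 was lowest in induced S34F cells and KIF23 reached the same low range in induced S34F and induced WT cells. The KIF15 changes were -1.22 ± 0.18 (edgeR adjusted p = 0.0340) in S34F cells and, with the block, -1.01 ± 0.18 (edgeR adjusted p = 0.0440) in Q157R cells. The KIF23 changes were -1.08 ± 0.19 (edgeR adjusted p = 0.0401) in S34F cells and, with the block, -1.09 ± 0.14 (edgeR adjusted p = 0.0143) in WT cells. KIF14, a kinesin of the midbody, had 73.8 and 71.5 CPM in induced S34F cells, against 148 CPM in uninduced S34F cells, with 95.1 and 92.9 CPM in induced and 149 CPM in uninduced Q157R cells and 82.1 and 78.5 CPM in induced and 153 and 125 CPM in uninduced WT cells. TPX2, an activator of Aurora A and the most abundant of the class, had 365 and 317 CPM in induced S34F cells, against 640.5 CPM in uninduced S34F cells, with 469 and 481 CPM in induced and 632 CPM in uninduced Q157R cells and 408 and 423 CPM in induced and 671 and 732 CPM in uninduced WT cells. Neither gene had overlapping groups in any line. KIF14 changed by -1.03 ± 0.19 (edgeR adjusted p = 0.0451) in S34F cells, and TPX2, with -0.91 ± 0.18 (edgeR adjusted p = 0.0516), passed with the block. The S34F changes of the other 7, KIF11, KIF18A, KIF20A, KIF20B, KIF2C, KIF4A and HMMR, were between -1.14 for KIF20B and -0.52 for KIF18A. KIF20A overlaps CDC23 and BRD8, and KIF18A overlaps METTL15, on the other strand.

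The midzone, cytokinesis and chromosomal passenger class had 1 of 6 genes called on S34F induction and 4 with the block (INCENP, PRC1, RACGAP1 and BIRC5). INCENP, the scaffold of the chromosomal passenger complex, had 65.3 and 63.02 CPM in induced S34F cells, against 124 CPM in uninduced S34F cells. It had 82.9 and 80.4 CPM in induced and 118 CPM in uninduced Q157R cells and 74.5 and 68.5 CPM in induced and 128 and 109 CPM in uninduced WT cells. PRC1, the microtubule bundler of the spindle midzone and the most abundant of the class, had 145 and 144 CPM in induced S34F cells, against 249.7 CPM in uninduced S34F cells, with 209 and 188 CPM in induced and 236 CPM in uninduced Q157R cells and 155 and 152 CPM in induced and 229 and 218 CPM in uninduced WT cells. Both were lower in every induced library than in any uninduced one. INCENP changed by -0.95 ± 0.19 (edgeR adjusted p = 0.0494) in S34F cells, and PRC1 had -0.79 ± 0.17 (edgeR adjusted p = 0.0578) and passed with the block at -0.75 ± 0.16 (edgeR adjusted p = 0.00810). ECT2, the exchange factor that activates RhoA at the cleavage furrow, had 47.3 and 39.5 CPM in induced S34F cells, against 46.8 CPM in uninduced S34F cells. It had 43.9 and 39.3 CPM in induced and 52.8 CPM in uninduced Q157R cells and 27.3 and 24.6 CPM in induced and 44.5 and 33.999 CPM in uninduced WT cells. Induced and uninduced S34F libraries overlap for ECT2, and the induced WT libraries are the lowest of all. The ECT2 change was -0.11 ± 0.24 (edgeR adjusted p = 0.812) in S34F and -0.60 ± 0.20 (edgeR adjusted p = 0.770) in WT cells. RACGAP1, the centralspindlin GTPase activator, BIRC5, survivin, and ANLN, anillin, had S34F changes of -0.57 ± 0.21, -0.69 ± 0.21 and -0.88 ± 0.34.

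Per length of annotated exon, the most abundant of the 51 over the 10 libraries were TPX2 at 143 CPM per kilobase, CDC20 at 107 and TOP2A at 78.9, and the least abundant were CENPI at 3.13 and CDC25C at 5.35.

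Induced S34F cells were then set against induced WT cells. Each form of U2AF1 has 1 line, so the mutation and other differences between the lines cannot be told apart. TOP2A, NCAPG and NCAPG2 were lower in S34F cells and ECT2 higher with the block. Of the 51 genes, 3 fell (0.991% of all genes and 1.53% of protein-coding genes were called lower). With the block 13 of the 51 fell (25.5%), against 12.9% of all genes and 19.3% of protein-coding genes, while 1 rose (9.56% of all genes). NCAPG2 averaged 32.1 ± 1.64 CPM in S34F and 86.3 ± 23.3 CPM in WT cells (SD, 2 libraries in each group), a difference of -1.43 ± 0.23 (edgeR adjusted p = 0.0443). TOP2A averaged 212 ± 10.3 CPM in S34F and 424 ± 53.7 CPM in WT cells, a difference of -1.001 ± 0.17 (edgeR adjusted p = 0.0443). NCAPG averaged 58.01 ± 1.13 CPM in S34F and 115 ± 10.5 CPM in WT cells, a difference of -0.99 ± 0.18 (edgeR adjusted p = 0.0448). For these 3 genes both S34F libraries lay below both WT libraries. None of the 3 was called without any 1 of the 4 induced S34F and WT libraries, in a fit of only the compared groups or in a fit of protein-coding genes.

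With the block, the genes that fell also included CCNA2, -0.76 ± 0.14 (edgeR adjusted p = 0.00419), UBE2C, -0.75 ± 0.15 (edgeR adjusted p = 0.00483), and NCAPD3, -0.92 ± 0.16 (edgeR adjusted p = 0.00303). ECT2 averaged 43.4 ± 5.52 CPM in S34F and 25.97 ± 1.94 CPM in WT cells, and rose with the block by 0.74 ± 0.15 (edgeR adjusted p = 0.00554) on the log2 scale, against 0.74 ± 0.20 (edgeR adjusted p = 0.0870) without it. CCNB1 and PLK1, the next highest, differed by 0.35 ± 0.20 (edgeR adjusted p = 0.331) and 0.22 ± 0.16 (edgeR adjusted p = 0.435). Of 9 condensin and chromosome structure genes 6 fell with the block, and the class median was -0.50, while the medians of the other 6 classes lay between -0.17 and 0.09. Over all 51 genes the median was -0.14, with 33 below 0, against -0.16 over protein-coding genes and 0.00 over all genes tested. Fitting protein-coding genes alone moved the median of those genes by 0.14 and left 26 of the 51 below 0, with a median of -0.00333 for the 51. Within replicate 1 the median of the 51 was -0.16 and within replicate 2 it was -0.12. Libraries did not overlap, with S34F lower, for 18 of the 51 genes, where 27.3% of all genes did not.

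**Figure D4:**
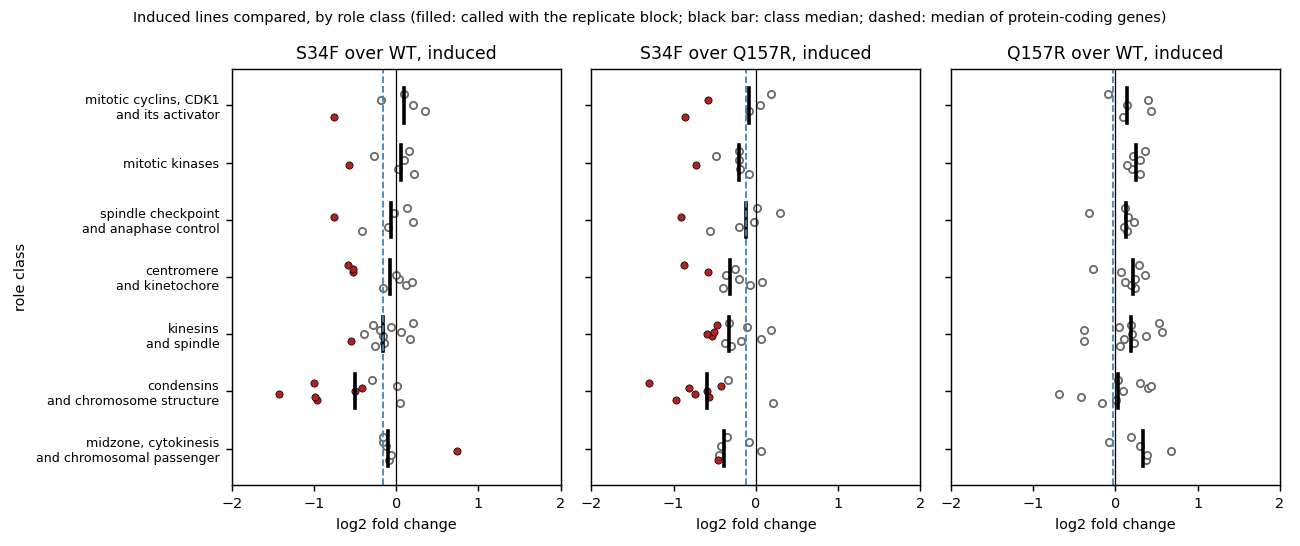
Log2 fold change (horizontal) of each of the 51 genes by role class (vertical) between the induced lines, S34F over WT, S34F over Q157R and Q157R over WT. Filled points passed the test with the replicate block, black bars are class medians and the dashed line is the median of protein-coding genes; the condensin class has the lowest S34F medians, -0.50 against WT and -0.59 against Q157R, and no point is filled for Q157R over WT.

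Against induced Q157R cells, induced S34F cells had the 51 genes at a median of -0.35, where protein-coding genes had -0.12 and all genes tested 0.00. TOP2A fell, with 205 and 219 CPM in S34F and 509 and 534 CPM in Q157R cells and a difference of -1.30 ± 0.17 (edgeR adjusted p = 0.0391); it was the 1 gene called, where 0.258% of all genes were called lower. With the block 18 fell, where 11.5% of all genes did, among them 7 of the 9 condensin and chromosome structure genes, SMC2 at -0.81 ± 0.14 (edgeR adjusted p = 0.00291) and UBE2C at -0.91 ± 0.15 (edgeR adjusted p = 0.00246). Libraries did not overlap, with S34F lower, for 32 of the 51 genes, against 25.5% of all genes. In the fit of protein-coding genes the median was -0.24.

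Between induced Q157R and induced WT cells no difference in these genes passed the test. None of the 51 was called in edgeR (0% of all genes were), none was with the block (0.0188% of all genes were), and 9 had an unadjusted p under 0.05. The median was 0.19, against -0.01 over all genes tested, with 9 of the 51 below 0. Values ran from -0.69 ± 0.22 (edgeR adjusted p = 1.00) for NCAPG2 to 0.68 ± 0.20 (edgeR adjusted p = 1.00) for ECT2. Libraries did not overlap, with Q157R higher, for 23 of the 51 genes and 2762 of all 21300 genes tested. With Q157R lower, they did not for 4 of the 51 and 2862 of all genes. Before induction, S34F and WT lines had a median difference of 0.04 over the 51 genes, with none called (0% of all genes) and none at an unadjusted p under 0.05. Uninduced Q157R and WT lines gave the same counts and a median of 0.04 (0% of all genes called). Both uninduced mutant lines had 1 library, assumed to vary like the other groups.

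Whether induction changed a gene more in S34F than in WT cells was tested as the difference of the 2 inductions. The 51 genes had a median difference of -0.22, against -0.13 over protein-coding genes and 0.00 over all genes tested. None of the 51 was called (0% of all genes were). An unadjusted p under 0.05 was found for 5 of the 51 and for 1745 of all 21300 genes tested. With the block NCAPG2 alone was called, at -1.40 ± 0.23 (edgeR adjusted p = 0.0311), where 0.554% of all genes were called lower. NCAPD3, NCAPG and TOP2A had -1.01 ± 0.26 (edgeR adjusted p = 0.0895), -0.96 ± 0.24 (edgeR adjusted p = 0.0895) and -0.90 ± 0.20 (edgeR adjusted p = 0.0678) with the block. Without the block the condensin class had a median of -0.55 and the other 6 classes between -0.15 and -0.08. With it the condensin median was -0.41 and the other classes lay between -0.17 and 0.047. The 51 genes then had a median of -0.13, the same as the -0.13 over protein-coding genes.

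Replicates with the same number deviated together. Replicate 2 was lower than replicate 1 in all 4 groups with 2 libraries for 22 of the 51 genes (43.1%), against 19.1% of all genes, with CENPI, MAD2L1 and KIF20B showing the largest mean differences. For 5 of the 51 genes, TOP2A, UBE2C, NUF2, AURKB and KIF2C, replicate 2 was higher in all 4, against 4144 of all 21300 genes tested. What the replicate number stands for was not tested.

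Genes of neighbouring pathways that are not among the 51 gave a range of values on S34F induction. There, 1.26% of all genes tested were called lower, and 11.0% with the block (16.4% of protein-coding genes). Of 18 regulators of the G2/M programme, 2 fell and 7 did with the block (median -0.59), the activator FOXM1 by 1.35 ± 0.26 (edgeR adjusted p = 0.0471) and TFDP1, the partner of E2F factors, by 1.47 ± 0.27 (edgeR adjusted p = 0.0442) on the log2 scale. Of 12 entry kinases and phosphatases, 7 fell with the block, and without it the kinase MELK alone fell, -1.20 ± 0.23 (edgeR adjusted p = 0.0478) (median -0.85). Of 21 other spindle and cytokinesis genes, 5 fell (median -0.85) and 17 did with the block, among them the tubulin TUBA1B with -1.40 ± 0.21 (edgeR adjusted p = 0.0341), CDCA3 with -1.70 ± 0.26 (edgeR adjusted p = 0.0355) and the importin KPNA2 with -1.24 ± 0.20 (edgeR adjusted p = 0.0380). Of 25 other centromere and kinetochore genes, 2 fell and 11 did with the block (median -0.70), the 2 being the CENPA chaperone HJURP with -1.61 ± 0.24 (edgeR adjusted p = 0.0340) and CENPM with -1.82 ± 0.33 (edgeR adjusted p = 0.0438). None of 17 subunits and cofactors of the anaphase-promoting complex was called (median -0.25) and 4 fell with the block (ANAPC1, CDC23, FBXO5 and UBE2S), the most abundant of the list being CDC27 at -0.17 ± 0.24 (edgeR adjusted p = 0.692) and ANAPC5 at -0.22 ± 0.18 (edgeR adjusted p = 0.487). None of 15 cohesin genes was called (median -0.49) and 4 fell with the block (SMC1A, SMC3, PDS5A and SGO1), with RAD21 at -0.30 ± 0.29 (edgeR adjusted p = 0.543) and PDS5A at -0.62 ± 0.20 (edgeR adjusted p = 0.113) without the block and -0.54 (edgeR adjusted p = 0.0349) with it.

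DNA replication genes, set beside the 51, had 8 of 39 called lower on S34F induction, with a median of -1.27, and 29 with the block, where 1.26% and 11.0% of all genes were. In induced S34F against induced WT cells 5 of 39 were called lower, with a median of -0.82 where the 51 had -0.14, and 22 with the block, where 0.991% and 12.9% of all genes were. The helicase subunit MCM2 differed by -1.17 ± 0.20 (edgeR adjusted p = 0.0443) and thymidylate synthase, TYMS, by -1.01 ± 0.15 (edgeR adjusted p = 0.0443) in the second comparison. In WT induction the replication genes had a median of -0.50 and the 51 genes -0.67. Of 14 tested genes on the list of G1 cyclins and CDK inhibitors, 4 fell on S34F induction and 10 did with the block (median -1.03). CCND1 had the largest of these changes, -2.41 ± 0.41 (edgeR adjusted p = 0.0398), and CDK2 the lowest adjusted p, -1.56 ± 0.24 (edgeR adjusted p = 0.0341). In S34F against WT 3 of the list fell and 9 did with the block (median -1.05). CCND1 again had the largest called change, -1.996 ± 0.36 (edgeR adjusted p = 0.0451), and CDK4 the lowest adjusted p, -1.36 ± 0.19 (edgeR adjusted p = 0.0432).

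Few reads were assigned to the same genes in the libraries of RNA bound by the splicing factor. Of all reads in these libraries, 0.856% to 1.91% were assigned to any gene. Reads outside annotated features were not examined, so these counts do not measure binding to the whole RNAs. In eCLIP, RNA crosslinked to U2AF1 or U2AF2 in induced WT cells was sequenced after immunoprecipitation, and freCLIP does the same for U2AF1 in a lighter and a heavier size range of the complexes, the light and heavy fractions. The 51 genes held 0.0880% to 0.120% of gene counts in the 7 eCLIP libraries, and NCAPG and PRC1 held 22.0% and 19.5% of the counts of the 51. In freCLIP 11 of the 51 passed the filter among 6833 genes tested. PRC1 had 1 and 0 counts in the light Q157R libraries, which held 38415 and 135596 gene counts, against 21, 41 and 26 counts in the light WT libraries, which held 78987, 324150 and 172896. It was called lower in edgeR (-4.89, adjusted p = 0.0329), as were 6.25% of all genes, in a comparison where the median gene differed by -1.19. The ratio of its share was 0.0376, with an exact 95% interval of 0.000942 to 0.215 that covers counting error only. Without light Q157R replicate 3, which held 0 counts, it was not called. In the heavy fraction PRC1 had 33 and 56 counts in Q157R against 23, 18, 111 and 118 counts in WT libraries. None of the 11 was called in light S34F against WT (0.146% of all genes were called lower, and SPC24, with 0 counts in each of 3 light S34F libraries against 0, 12 and 24 in light WT, had the 1 unadjusted p under 0.05). None was called in heavy S34F against WT (0.132% of all genes called, no unadjusted p under 0.05) or in heavy Q157R against WT (0% of all genes, 1 unadjusted p under 0.05). NCAPG, with 36, 15 and 10 counts in light S34F libraries and 7, 92 and 30 in light WT libraries, gave no difference beyond its error, -0.19 ± 0.60 (edgeR adjusted p = 0.94).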

How the data were processed

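Per the labels' protocols, RNA-seq libraries were made after rRNA depletion. The deposited tables hold raw read counts per annotated gene, made by the authors. Tools in the submitters' processing notes, given without roles, are STAR 2.5.3a and 2.7.0f, HTSeq, HISAT2, cutadapt, DESeq2, SAMtools and edgeR, and the build is GRCh38.p10; annotation and strand setting are not given in the sources used here. The 45 second copies of Y pseudoautosomal genes and reads naming no gene stayed out of library sizes and of all tests, which left 43.6% to 56.1% of the RNA-seq reads and, in CLIP, 0.856% to 1.91%. Gene IDs were matched to GENCODE release 29 (58039 of 58302 entries), and promoter sequences are RefSeq's for GRCh38.p14.

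Counts were scaled with TMM in edgeR 4.0.16 (R 4.3.3), filtered with filterByExpr (minimum count 10), and tested with the robust quasi-likelihood F test, 1 mean per group over all 10 RNA-seq or 17 freCLIP libraries, with p-values adjusted by Benjamini-Hochberg over every gene tested (threshold 0.05). The fit was tested on simulated counts. Alternatives were the replicate number as a block, RLE size factors, no filter, protein-coding genes, only the compared groups, DESeq2 1.42.0 and leaving out each library. In RNA-seq, deviations of same-numbered libraries from their group means correlated at 0.211 to 0.652 in all 6 pairs of groups. The labels do not say whether the numbers pair the samples. Blocked counts, or blocked values of named genes, are given where they change calls. The 51 genes, role classes and pathway lists were chosen with earlier results of these data known. Values in each library are given for genes called in any RNA-seq comparison, the most abundant gene of each of 7 classes, and the 3 highest and 3 lowest in S34F against WT. The series' 9 TimeLapse-seq samples are not analysed here.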

Additional observations from a re-analysis of the deposited data

Results flagged for a closer look

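NCAPG2, the condensin II subunit, passed the test for a difference between the S34F and WT inductions with the replicate block and not without it. The difference between its S34F induction and its WT induction was -1.40 on the log2 scale with the replicate number as a block (edgeR adjusted p = 0.0311), and -1.57 ± 0.35 (edgeR adjusted p = 0.589) without the block. Its level was 33.3 and 30.99 CPM in induced against 164 CPM in uninduced S34F cells, and 103 and 69.9 CPM in induced against 162 and 134 CPM in uninduced WT cells. The uninduced S34F group has 1 library. The share of reads outside features was also higher in induced S34F libraries (33.7% and 33.5%) than in induced WT libraries (22.7% and 22.7%), and its part in this difference was not tested.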

How the results depend on the processing

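The number of the 51 genes called depended on the setting, while medians kept their sign for the 3 inductions and for S34F against Q157R. For S34F against WT the median came to -0.00333 in the fit of protein-coding genes, with 26 of the 51 below 0. With the replicate number as a block the counts were 14 for S34F against WT (3 without it), 18 for S34F against Q157R (1 without it), 36, 4 and 15 for the S34F, Q157R and WT inductions (14, 0 and 0 without it), and 1 for the difference of the S34F and WT inductions. With no filter on low counts they were 6, 7, 31, 5, 3 and 2 in the same order. DESeq2 called 7, 6, 23, 3 and 2 in the first 5. The shares of all genes called with no filter or by DESeq2 are not given here. Fitting protein-coding genes only gave 0 for S34F against WT and 6 for S34F induction, and fitting only the compared groups gave 0 for S34F against WT and 0 for S34F against Q157R. Leaving out 1 library gave 0 to 0 for S34F against WT, S34F against Q157R and S34F induction. In light freCLIP, Q157R against WT called 1 gene, PRC1, and 0 with RLE size factors or with no filter; leaving out 1 library gave 0 to 1.

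Over the alternatives the median ranged from -0.94 to -0.72 for S34F induction, -0.61 to -0.44 for Q157R induction, -0.79 to -0.59 for WT induction, -0.45 to -0.23 for S34F against Q157R, -0.23 to -0.00333 for S34F against WT and -0.32 to -0.0639 for the difference of the S34F and WT inductions. For named single genes, 365 of 500 alternative values kept their side of the threshold, 75 gained it, 60 lost it and none changed direction. The causes were not tested. Groups of 1 or 2 libraries limit every test.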
